A study of Homo sapiens with 6 samples.

Results

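Microtubules are hollow polymers of alpha- and beta-tubulin dimers. Proteins that bind along the polymer, the lattice microtubule-associated proteins (MAPs), set how stable it is, and collapsin response mediator proteins (CRMPs) bind tubulin dimers and steer where they are added. Neurons use a particular set of these genes: MAP2 lies mainly in dendrites, tau (MAPT) in axons, MAP1B in growing axons, and class III beta-tubulin (TUBB3) is widely used as a marker of neurons, although carcinoma cells can express it too.

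The 10 neuronal-type microtubule genes described here are MAP1A, MAP1B, MAP2, MAPT, TUBA1A, TUBB2A, TUBB2B, TUBB3, TUBB6 and DPYSL3. They were taken by symbol from the 57781 rows of the count table, and the group was chosen because MAP1B had the largest rise among the genes of a target list of the study. The selection therefore used the same contrast as the one described, so the members' differences between the groups are given as values with no test. TUBB6 is included although it is found in many tissues outside the nervous system.

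The cells were A549, a line established from a human lung adenocarcinoma, which the labels call NSCLC (non-small cell lung cancer), and their total RNA was sequenced. There were 3 libraries with the empty vector, labelled WT in genotype, and 3 in which a short hairpin RNA lowered METTL3 (shMETTL3), in otherwise the same line and medium. METTL3 is the catalytic subunit of the complex that writes N6-methyladenosine (m6A) into mRNA. The hairpin sequences, the time after plasmid transfection and whether the replicates were separate cultures are not given for these libraries in the sources used here. The paper states only in general that its experiments were independent and done at least 3 times. The p-values therefore measure only the spread between these samples, which may be technical. Library totals ran from 14931426 to 19108928 counts, at which 3 counts correspond to 0.150 to 0.189 CPM, the count of a gene scaled to a library of fixed size. METTL3 itself had 49.4, 50.6 and 49.5 CPM in vector replicates 1 to 3 and 18.9, 19.9 and 19.3 CPM in shMETTL3 replicates 1 to 3, and it fell to 38.8% of its vector level (log2 fold change -1.36 with a standard error of 0.067, and an edgeR quasi-likelihood adjusted p of 4.57e-16). Of the 15125 genes tested, 66.6% passed an adjusted p under 0.05, with 33.7% higher and 32.9% lower in shMETTL3, and the CPM of the groups did not overlap for 69.4%. With scaling by library size alone in place of TMM, the trimmed mean of M-values scaling used throughout, 6750 genes were higher and 3509 lower, against 5090 and 4977.

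All 5 tubulin members carry, in their first 4 codons, the signal through which the amount of free tubulin is known to control the decay of tubulin mRNA: the nascent peptide is read by TTC5 on the ribosome. The first 30 coding bases are shown because they hold that signal, with those first 4 codons in capitals. They come from GRCh37, the build the authors name as hg19. The last codon in capitals is ATC in the beta-tubulin members and TGC in TUBA1A, whose bases after it differ as well. TUBA1A has its start codon in a separate exon from the bases after it, so its sequence joins chr12:49582760-49582762 and chr12:49580590-49580616.
TUBB3, chr16:89989810-89989839, plus strand: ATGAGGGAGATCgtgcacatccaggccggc
TUBB2A, chr6:3157668-3157697, minus strand: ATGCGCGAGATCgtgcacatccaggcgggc
TUBB2B, chr6:3227748-3227777, minus strand: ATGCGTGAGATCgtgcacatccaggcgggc
TUBB6, chr18:12308292-12308321, plus strand: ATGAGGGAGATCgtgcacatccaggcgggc
TUBA1A, chr12, minus strand: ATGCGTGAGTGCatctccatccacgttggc

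The last 30 bases before the stop codon encode part of the acidic tail that faces outward from the microtubule and differs most between isotypes. They are shown for the beta-tubulin members because TUBB2A and TUBB2B differ there only in the last base, while TUBB3 and TUBB6 differ more.
TUBB3, chr16:90002180-90002209, plus strand: gaggaggagtcggaggcccagggccccaag
TUBB2A, chr6:3154100-3154129, minus strand: ttcgaggaggaggagggcgaggacgaggct
TUBB2B, chr6:3224988-3225017, minus strand: ttcgaggaggaggagggcgaggacgaggcg
TUBB6, chr18:12326097-12326126, plus strand: tttgaggatgaggaagaggagatcgatgga
Over the whole coding sequence TUBB2A and TUBB2B were identical at 98.2% of alignment positions, gaps included. The value was 87.8% for TUBB3 and TUBB6 and 87.8% for TUBB2A and TUBB3. TUBA1A was identical to TUBA1B at 97.2% and to TUBA1C at 95.9%. Of the 50-base words of its exons, 54.4% occurred once in the primary GRCh37 genome for TUBB2A, 74.7% for TUBB2B and 77.5% for TUBA1A. TUBB2A shared 33.2% of its words with TUBB2B. The share was 90.1% for TUBB3, 99.4% for TUBB6, 98.7% for MAPT and 100% for MAP1A, MAP1B, MAP2 and DPYSL3. The counts of TUBB2A, TUBB2B and TUBA1A are therefore uncertain where reads fit a paralog as well, and the read length is not given in the sources used here.

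MAP1B was the most changed of the lattice MAPs among the members. It encodes a large protein, cut into a heavy and a light chain, that stabilises microtubules in extending neurites, and it spans chromosome 5 from 71403061 to 71505392 (GRCh37, plus strand, 7 exons in the canonical transcript, a coding length of 7404 bases and a 3′UTR of 4329). It stood at 45.0, 41.8 and 41.1 CPM in vector replicates 1, 2 and 3 and at 201, 202 and 191 CPM in shMETTL3 replicates 1, 2 and 3. Every shMETTL3 library lay far above every vector library, and the libraries within a group were close together. The means were 42.7 ± 2.07 and 198 ± 6.02 CPM (SD, n = 3 each), a ratio of 4.63 and a log2 fold change of 2.21 (standard error 0.057). Among all tested genes, 470 had a larger rise.

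MAP1A, the MAP1B relative of mature neurons, was barely detected. It spans chromosome 15 from 43803156 to 43823818 (plus strand). With the vector it had 26, 17 and 22 counts, and in shMETTL3 it had 38, 36 and 22, which gave 1.27 ± 0.226 and 1.72 ± 0.299 CPM (SD, n = 3 each). The groups overlapped, since shMETTL3 replicate 3, at 1.39 CPM, lay below vector replicate 1, at 1.45 CPM. Its log2 fold change was 0.44 (standard error 0.27).

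MAP2, which spaces and stabilises microtubules in dendrites, differed in the direction opposite to MAP1B. It spans chromosome 2 from 210288771 to 210598871 (plus strand). It had 28.8, 28.5 and 25.5 CPM in vector replicates 1 to 3 and 17.3, 16.1 and 17.5 CPM in shMETTL3 replicates 1 to 3. No shMETTL3 library reached the lowest vector library. The shMETTL3 mean was 61.4% of the vector mean, 17.0 ± 0.783 against 27.6 ± 1.82 CPM (SD, n = 3 each), and the log2 fold change was -0.71 (standard error 0.079).

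MAPT, which encodes tau, spans chromosome 17 from 43971893 to 44105700 (plus strand). It had 6.30, 4.43 and 6.25 CPM in the vector libraries and 5.28, 5.49 and 4.41 CPM in the shMETTL3 libraries. The groups overlapped, with 1 library of each group near the bottom of the range. The log2 fold change was -0.15 (standard error 0.16), and it was 0.020 with scaling by library size alone, so that no direction can be given.

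**Figure D1:**
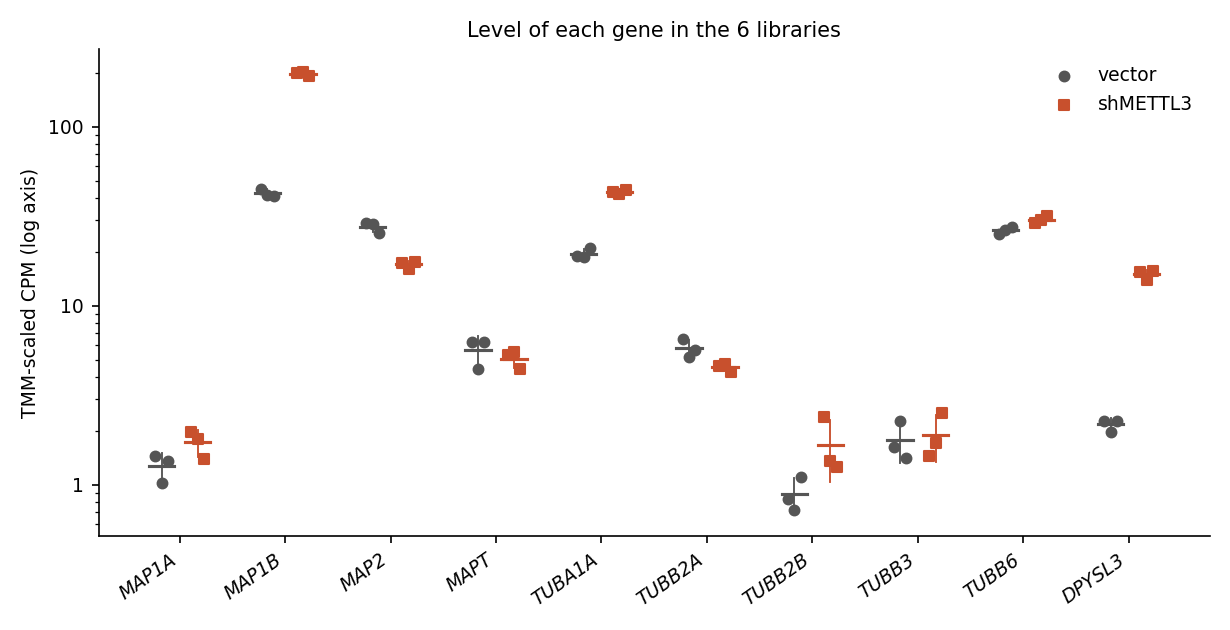
TMM-scaled CPM of the 10 genes (log axis) in each of the 3 vector libraries (circles) and 3 shMETTL3 libraries (squares), with the group mean as a horizontal line and 1 SD as a vertical line. MAP1B, TUBA1A and DPYSL3 are set apart upward in shMETTL3, MAP2 downward, while the points of MAP1A, MAPT and TUBB3 overlap.

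TUBA1A is the alpha-tubulin most used by neurons in development. It spans chromosome 12 from 49578469 to 49582863 (minus strand). In vector replicates 1 to 3 it stood at 18.9, 18.6 and 21.0 CPM and in shMETTL3 replicates 1 to 3 at 43.2, 42.3 and 44.6 CPM. The groups did not overlap, and the spread within each was small against the gap. The ratio of the means, 19.5 ± 1.30 and 43.4 ± 1.16 CPM (SD, n = 3 each), was 2.23, with a log2 fold change of 1.16 (standard error 0.072). Exons of TUBA1A share 345 bases, 9.02% of their length, with TUBA1C on the opposite strand, and whether the counting used strand is not given in the sources used here.

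The beta-tubulin members differed less, and not all one way. TUBB3, which spans chromosome 16 from 89987800 to 90005169 (plus strand), had 1.62, 2.27 and 1.41 CPM in the vector libraries and 1.45, 1.70 and 2.52 CPM in the shMETTL3 libraries. These ranges overlapped almost fully, and the log2 fold change of 0.07 (standard error 0.26) became -0.17 without shMETTL3 replicate 3. In counts it had 29, 38 and 23 with the vector and 28, 34 and 40 in shMETTL3. In GENCODE, 1584 bases of its exons, or 21.3%, also belong to a longer read-through gene on the same strand, and how such reads were counted is not given in the sources used here.

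TUBB2A and TUBB2B are neighbouring genes on the minus strand of chromosome 6, TUBB2A from 3153731 to 3157778 and TUBB2B from 3223558 to 3231964, and both serve the developing brain. TUBB2A had 6.52, 5.15 and 5.64 CPM in the vector libraries and 4.61, 4.74 and 4.28 CPM in the shMETTL3 libraries, a log2 fold change of -0.34 (standard error 0.15). TUBB2B, with 12 to 18 counts per vector library, had 0.836, 0.718 and 1.10 CPM, and with 20 to 46 counts per shMETTL3 library 2.38, 1.35 and 1.26 CPM. For neither gene did the groups overlap, but shMETTL3 replicate 1 of TUBB2B lay well above the other two. The log2 fold change of TUBB2B was 0.92 (standard error 0.32) and 0.56 without that library. That of TUBB2A was -0.17 with scaling by library size alone. Since the pair share words of sequence, as given with their coding ends, opposite values for them rest on the reads that fall where they differ.

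TUBB6, a beta-tubulin of muscle and many other tissues, spans chromosome 18 from 12307668 to 12344319 (plus strand). It was the most abundant beta-tubulin member, at 25.1, 26.5 and 27.6 CPM with the vector and 29.1, 30.0 and 31.6 CPM in shMETTL3. The shMETTL3 libraries all lay above the vector libraries, by 1.14 times on average (log2 fold change 0.19, standard error 0.072). Scaling by library size alone gave 0.37. Of its exon bases 21.2% overlap AFG3L2 on the opposite strand, a gene with 66.1 ± 0.761 CPM with the vector and 73.2 ± 1.63 CPM in shMETTL3 (SD, n = 3 each), and the part of that overlap in the TUBB6 counts was not tested.

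DPYSL3, also called CRMP4, binds tubulin and actin in growth cones. It spans chromosome 5 from 146770371 to 146889631 (minus strand). From 2.28, 1.98 and 2.27 CPM with the vector it stood at 15.4, 14.0 and 15.7 CPM in shMETTL3. All 3 shMETTL3 libraries exceeded all 3 vector libraries several times over, which was the largest ratio among the members. The means were 2.18 ± 0.174 and 15.0 ± 0.917 CPM (SD, n = 3 each), a ratio of 6.90 and a log2 fold change of 2.78 (standard error 0.14), and 301 tested genes had a larger rise.

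**Figure D2:**
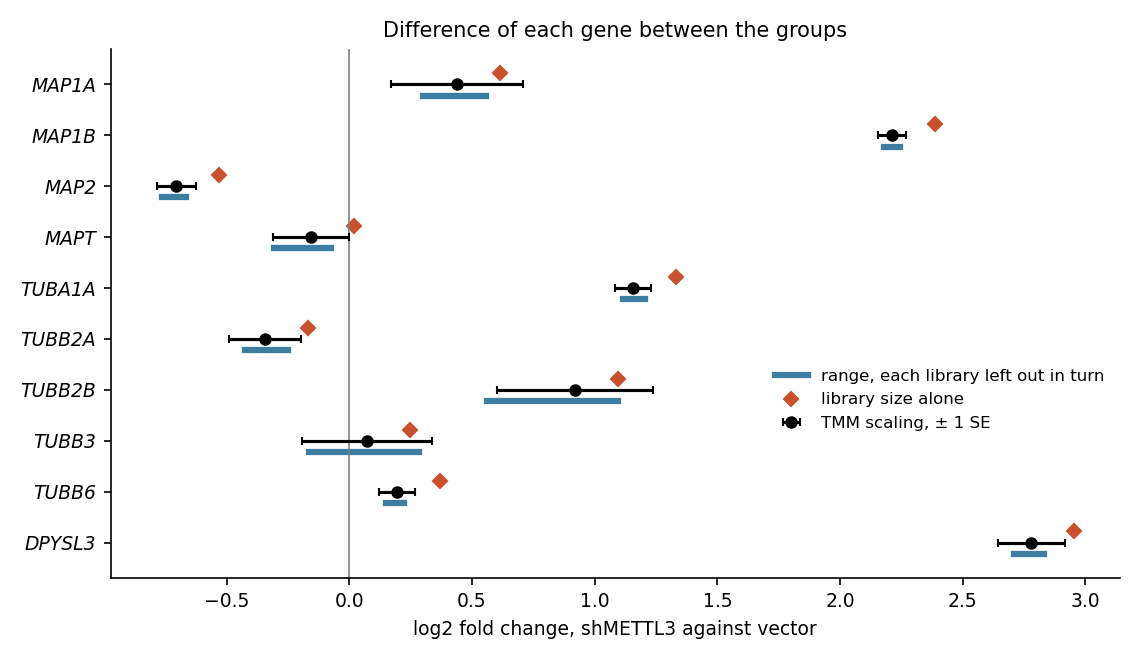
Log2 fold change of each gene between shMETTL3 and vector (black points with 1 standard error), beside the range when each library is left out in turn (blue bars) and the value with scaling by library size alone (diamonds). Leaving out a library moved TUBB3 across 0, from -0.17 to 0.29, while MAP1B stayed between 2.18 and 2.25 and DPYSL3 between 2.71 and 2.83.

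All 10 members passed the filter on low counts. The groups did not overlap for 7 members, beside 69.4% of all tested genes. Nothing is read from this count, since the members were selected on this contrast. Log2 fold changes ran from -0.71 to 2.78 with a median of 0.32, and the median over all tested genes was 0.0022. In bulk RNA, fewer cells expressing a gene and less of its RNA per cell cannot be told apart.

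Levels of different genes can be set side by side only per length, here as RPKM, which is the CPM divided by the summed exon length in kilobases. With the vector TUBB6 was highest, at 6.70 ± 0.327 RPKM, then TUBA1A at 5.09 ± 0.341 and MAP1B at 3.40 ± 0.165 (SD, n = 3 each). Next came MAP2 at 2.33 ± 0.154 and TUBB2A at 1.98 ± 0.239, whose libraries overlapped. MAPT, DPYSL3, TUBB3 and TUBB2B followed between 0.213 and 0.308, each overlapping its neighbour in the order, and MAP1A was lowest at 0.119 ± 0.0212. The order of these low levels depended on the length used: per canonical transcript TUBB3 was at 1.04, MAPT at 0.830, TUBB2B at 0.461 and DPYSL3 at 0.396 RPKM.

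By summed exon length, the order in shMETTL3 was led by MAP1B at 15.8 ± 0.480 RPKM, with TUBA1A at 11.3 ± 0.302 and TUBB6 at 7.67 ± 0.315 below it (SD, n = 3 each). DPYSL3 followed at 2.09 ± 0.128 RPKM. TUBB2A and MAP2, at 1.56 ± 0.0807 and 1.43 ± 0.0661, again overlapped. TUBB2B stood at 0.400 ± 0.150, apart from MAPT at 0.275. TUBB3, at 0.254, overlapped both TUBB2B and MAPT. The lowest level was again that of MAP1A, at 0.161 ± 0.0281. With the other lengths TUBA1A led in place of MAP1B, at 25.9 against 16.8 RPKM per canonical transcript and at 32.1 against 26.7 RPKM per coding length. Per canonical transcript DPYSL3, at 2.73 RPKM, lay below TUBB2A, at 2.81 RPKM. MAP1A was lowest in both groups under each of the 3 lengths.

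Tubulin is made in alpha and beta form, and most cells draw on several genes for each, so the tubulin members are also given as shares of their family. The summed RPKM of the alpha-tubulin genes was 86.7 ± 3.79 with the vector and 91.8 ± 1.55 in shMETTL3 (SD, n = 3 each). TUBA1A made up 5.94%, 5.64% and 6.04% of it in vector replicates 1 to 3 and 12.6%, 11.9% and 12.7% in shMETTL3 replicates 1 to 3. The share of TUBA4A, an alpha-tubulin of muscle, brain and platelets, was also larger in shMETTL3, at 39.6% ± 1.54 against 22.2% ± 1.01. The shares of the widely expressed TUBA1B and TUBA1C were smaller, at 17.4% ± 0.477 against 32.2% ± 1.40 and at 29.6% ± 1.12 against 38.5% ± 1.40. For each of these isotypes the shMETTL3 libraries lay apart from the vector libraries. With the canonical transcript's length in place of the summed exons, the share of TUBA1A was 7.21% with the vector and 15.2% in shMETTL3.

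The summed RPKM of the beta-tubulin genes was 130 ± 8.35 with the vector and 148 ± 1.96 in shMETTL3 (SD, n = 3 each). The widely expressed TUBB4B took 92.4% ± 0.252 with the vector and 92.4% ± 0.304 in shMETTL3. TUBB6 took 5.14% ± 0.177 and 5.19% ± 0.232, TUBB2A 1.53% and 1.06%, TUBB3 0.184% and 0.172%, and TUBB2B 0.162% and 0.271%. The neuronal beta-tubulins were thus a small part of the counted beta-tubulin in both groups. With coding length, TUBB6 took 9.33% and 9.39%.

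**Figure D3:**
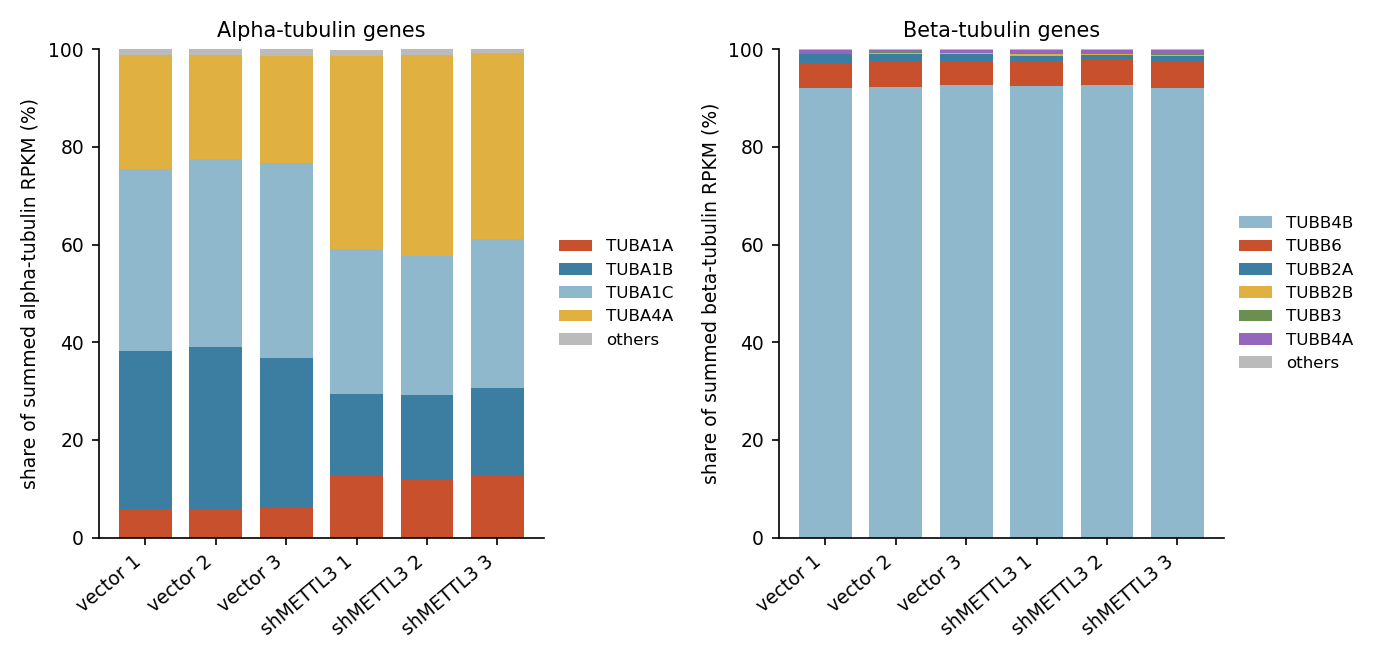
Share of each isotype in the summed RPKM of the alpha-tubulin genes (left) and the beta-tubulin genes (right), in percent, for the 6 libraries. The TUBA1A part is about 6% in the vector libraries and about 12% in shMETTL3, with TUBA4A larger and TUBA1B and TUBA1C smaller, while TUBB4B fills 92.1% to 92.7% of every beta-tubulin bar.

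These beta-tubulin shares leave out TUBB, the main constitutive beta-tubulin gene, which was listed at 0 counts in 5 libraries and at 1 in shMETTL3 replicate 3, although 85.5% of its 50-base exon words occur once in the primary GRCh37 genome. Its surroundings on chromosome 6 were as empty, a check chosen after the values were seen. Of 32 coding genes within 500 kb of TUBB, 29, or 90.6%, had 3 counts or fewer in every library, against 25.2% of the 18982 coding genes matched. ATAT1, the tubulin acetyltransferase, is among them and was listed at 0 throughout. TUBBP1, a pseudogene of TUBB, had 301, 293 and 303 counts with the vector and 204, 240 and 193 in shMETTL3. Around MAPT 7 of 11 coding neighbours, or 63.6%, had 3 counts or fewer in every library, as did 3 of 6 around DPYSL3, 2 of 5 around MAP1B and 5 of 24, or 20.8%, around MAP1A. Around the remaining members the share ran from 0 of 11 for TUBB2A to 1 of 4 for MAP2. As distributed by UCSC, hg19 holds alternative haplotype sequences of the TUBB and MAPT regions, and which sequences the reads were mapped to is not given in the sources used here. Their part in these low counts was not tested, so that the level of MAPT is given as counted.

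The other microtubule genes, from 8 lists by role, changed in both directions. Of 105 genes outside the members, 104 were matched to a row and 84 tested, and by edgeR's test 37 of these rose and 30 fell (adjusted p under 0.05), beside 33.7% and 32.9% of all tested genes. Their median log2 fold change was 0.060. With scaling by library size alone 44 rose and 15 fell.

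Of 10 tested tubulins outside the members, 6 rose and 3 fell (median log2 fold change 0.30). Those that rose most were TUBD1, the delta-tubulin of centrioles (0.93, adjusted p = 6.40e-07 by edgeR), TUBA4A (0.92, adjusted p = 3.21e-14) and TUBB4A, a beta-tubulin of brain (0.84, adjusted p = 6.79e-04). TUBA4A stood at 71.6, 67.9 and 73.5 CPM with the vector and at 132, 141 and 129 CPM in shMETTL3. The falls were those of TUBA1B (-0.80, adjusted p = 7.39e-13), TUBA1C (-0.30, adjusted p = 4.08e-05) and TUBG1, the gamma-tubulin that nucleates microtubules (-0.21, adjusted p = 9.40e-03). TUBA1B and TUBA1A, whose coding sequences are nearly identical, thus differed in opposite directions. The call of TUBG1 was lost with scaling by library size alone, at a log2 fold change of -0.04, and without vector replicate 3 or shMETTL3 replicate 1 (adjusted p = 0.0736 and 0.0633 by edgeR).

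The lattice MAPs outside the members showed 6 rises and 3 falls among 10 tested genes (median 0.32). MAP7D2, which recruits kinesin-1 in neurons, rose from 0.861 ± 0.324 to 5.02 ± 0.914 CPM (SD, n = 3 each, log2 fold change 2.54, adjusted p = 4.67e-10 by edgeR), and MAP9 and MAP7D3 rose by 0.80 and 0.66 on the log2 scale. The broadly expressed MAP7, MAP1S and MAP4 fell by 0.52, 0.49 and 0.22 (adjusted p = 1.01e-09, 2.70e-04 and 5.99e-04). The call of MAP4 was lost with scaling by library size alone, at -0.05 (adjusted p = 0.412 by edgeR). MAP6, which makes neuronal microtubules stable in the cold, was chosen after its values were seen: it had 1, 1 and 3 counts with the vector and 52, 52 and 45 in shMETTL3, a ratio of 27.5 with a 95% Clopper-Pearson counting interval of 11.5 to 85.9. DCX, a defining MAP of migrating neurons, was at 0 in every library.

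The CRMPs and stathmins other than DPYSL3 had 5 rises and 1 fall among 6 tested genes, with a median log2 fold change of 0.97. DPYSL5 rose from 0.557, 0.898 and 1.16 CPM to 6.42, 6.18 and 6.68 CPM (2.88, adjusted p = 3.26e-12 by edgeR). CRMP1 rose by 1.21 (adjusted p = 2.14e-07) and DPYSL4 by 1.08 (adjusted p = 4.26e-05). The fall was that of STMN1, which sequesters tubulin dimers in dividing cells, from 152 ± 5.15 to 91.8 ± 4.35 CPM (SD, n = 3 each, -0.73, adjusted p = 2.61e-12). STMN2, the neuronal stathmin, was at 0 in every library.

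At the microtubule ends 6 of 15 tested genes rose and 7 fell (median -0.04). MAPRE3, the neuronal end-binding protein EB3, rose from 9.83 ± 1.47 to 29.6 ± 2.12 CPM (SD, n = 3 each, 1.58, adjusted p = 4.37e-14 by edgeR). CAMSAP2, which holds free minus ends, rose by 0.89 and CLIP2 by 0.50 on the log2 scale. SLAIN1, a partner of plus ends in neurites, and TPPP, which bundles microtubules in oligodendrocytes, fell by 1.68 and 1.65 (adjusted p = 7.40e-15 and 2.48e-15), and CAMSAP3, which anchors microtubules in epithelia, by 0.68.

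Tubulin folding and autoregulation genes fell more often than they rose, with 5 falls and 2 rises among 8 tested (median -0.21). TBCB, TTC5 and ARL2 fell by 0.44, 0.32 and 0.31 on the log2 scale (adjusted p = 9.65e-08, 8.76e-04 and 1.20e-03 by edgeR), while TBCEL and TBCE rose by 0.44 and 0.39. TTC5, which reads the nascent peptide that the first codons printed above encode, stood at 29.0 ± 1.42 CPM with the vector and 23.2 ± 2.26 CPM in shMETTL3 (SD, n = 3 each). The calls of TTC5 and ARL2 were lost with scaling by library size alone, at -0.14 for both.

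Among the enzymes that modify tubulin, 6 of 20 tested genes rose and 7 fell (median -0.22), and TTLL13 was not matched to a row. The polyglutamylases TTLL6 and TTLL11 rose by 2.09 and 1.47 (adjusted p = 1.01e-07 and 1.02e-06 by edgeR), as did VASH1, which removes the last tyrosine of alpha-tubulin, by 1.01 (adjusted p = 1.80e-09). TTLL12 and TTLL5 each fell by 0.81 and TPGS2 by 0.45 (adjusted p = 1.23e-11, 2.74e-10 and 5.02e-08). Of 7 severing genes (median 0.22), KATNAL2, KATNAL1 and SPAST rose by 0.71, 0.68 and 0.52. Of 8 tested genes for kinases that act on tau and MAP2, counting the CDK5 activator CDK5R1 with them, 3 rose and 3 fell (median 0.03). CDK5R1 rose by 0.49, MARK3 by 0.26 and GSK3B by 0.16, while MARK1 fell by 0.82, MARK4 by 0.33 and MARK2 by 0.26. The calls of MARK4 and MARK2 were lost with scaling by library size alone, and that of CDK5R1 without vector replicate 2 or shMETTL3 replicate 1 (adjusted p = 0.0515 and 0.0934 by edgeR).

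**Figure D4:**
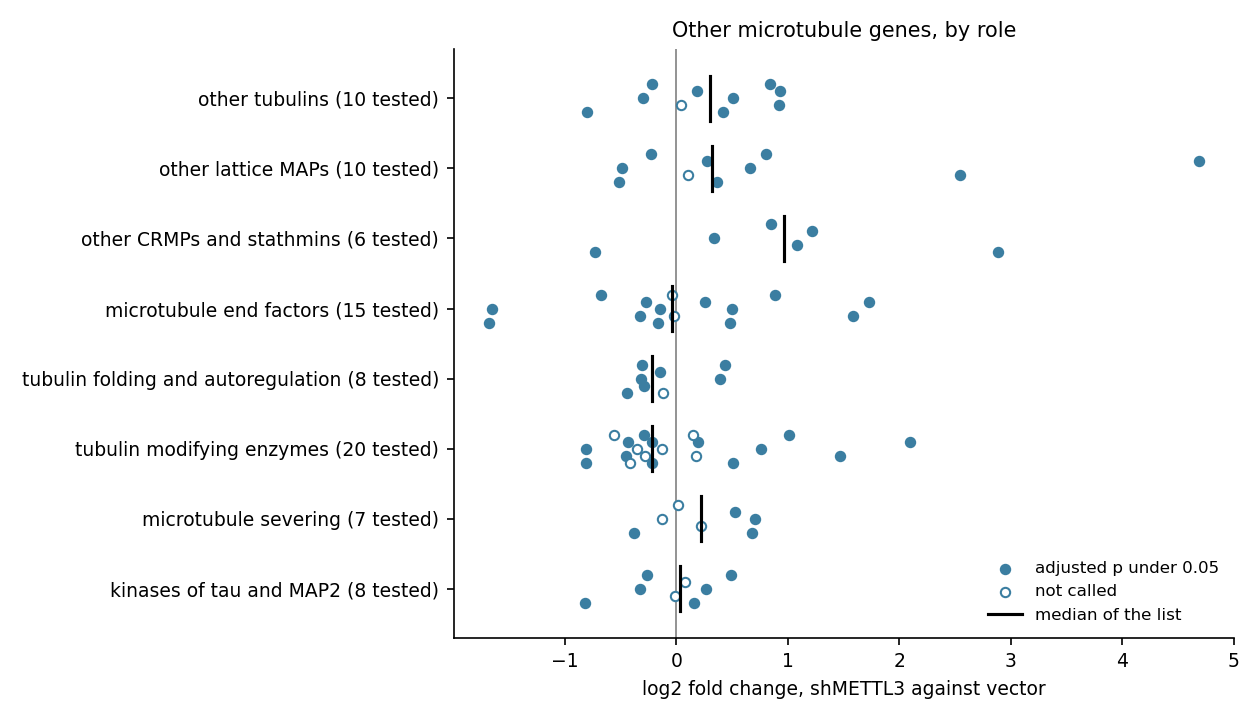
Log2 fold change between shMETTL3 and vector of each tested gene of the 8 microtubule lists (filled circles where edgeR's adjusted p was under 0.05, open circles for the others), with the list's median as a vertical bar. The medians lie between -0.22 for the modifying enzymes and 0.97 for the CRMPs and stathmins, and every list holds genes on both sides of 0.

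Of 79 candidates in these lists, the genes whose log2 CPM was most like that of MAP1B over the 6 libraries were TUBA4A (Pearson r = 0.994), MAP7D3 (0.991) and TTLL11 (0.988). The 6 points fall into the 2 groups, so that these values describe a difference between the groups with little spread inside them.

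Markers of neurons and neuroendocrine cells did not move as 1 block. Of 24 markers 11 were tested, and 6 rose and 4 fell, while 10 had 3 counts or fewer in every library, among them DCX, STMN2, ELAVL4, INSM1 and NEUROD1 at 0 throughout. SYT1, a calcium sensor of synaptic vesicles, rose from 2.03 ± 0.469 to 22.7 ± 1.94 CPM (SD, n = 3 each, log2 fold change 3.49, adjusted p = 3.20e-18 by edgeR). SNAP25, also of vesicle release, and the neurofilament gene INA rose by 1.13 and 0.85 on the log2 scale (adjusted p = 6.36e-13 and 9.35e-10). NEFL, NCAM1 and UCHL1 fell by 1.72, 1.13 and 0.64 (adjusted p = 1.75e-18, 4.79e-11 and 2.26e-11). The summed level of the list, mostly UCHL1, lay between 968 and 1050 CPM with the vector and between 747 and 799 CPM in shMETTL3.

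The epithelial markers of A549 cells were present in all libraries, and 5 of 6 fell (median -1.22). EPCAM fell from 109 ± 5.32 to 16.4 ± 0.867 CPM (SD, n = 3 each, -2.73, adjusted p = 7.80e-23 by edgeR), KRT19 by 2.41 and KRT18 by 1.35, while KRT7 rose by 0.29. The summed level of these markers was 9970 to 10600 CPM with the vector and 5150 to 5600 CPM in shMETTL3. The part of that shift in the members' differences was not tested.

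The promoters of the 3 members with the largest ratios, MAP1B, TUBA1A and DPYSL3, are shown because these genes were higher together. The sequences are the 250 bases before the start in RefSeq's GRCh38.p14 table, in which 9 of the 10 members were matched, all but MAPT. Capitals mark matches on either strand to 3 common promoter motifs, the TATA box TATAAA, the CCAAT box CCAAT and the GC box GGGCGG, none of which is contained in another.
MAP1B, chr5:72107225-72107474, plus strand: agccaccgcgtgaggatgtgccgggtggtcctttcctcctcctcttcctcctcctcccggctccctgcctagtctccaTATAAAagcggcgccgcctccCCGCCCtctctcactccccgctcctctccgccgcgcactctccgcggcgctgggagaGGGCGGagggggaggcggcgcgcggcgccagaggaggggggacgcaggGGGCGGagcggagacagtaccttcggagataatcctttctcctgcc
TUBA1A, chr12:49189081-49189330, minus strand: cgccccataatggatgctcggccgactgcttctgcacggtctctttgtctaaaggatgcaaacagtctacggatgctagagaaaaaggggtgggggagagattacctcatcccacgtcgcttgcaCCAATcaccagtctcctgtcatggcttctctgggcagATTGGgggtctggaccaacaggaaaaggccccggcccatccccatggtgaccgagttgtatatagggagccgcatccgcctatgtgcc
DPYSL3, chr5:147510069-147510318, minus strand: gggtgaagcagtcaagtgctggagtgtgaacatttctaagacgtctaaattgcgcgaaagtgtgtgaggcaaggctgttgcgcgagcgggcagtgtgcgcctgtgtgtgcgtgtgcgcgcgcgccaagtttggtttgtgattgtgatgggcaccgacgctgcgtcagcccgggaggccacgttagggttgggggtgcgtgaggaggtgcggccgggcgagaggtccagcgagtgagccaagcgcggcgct
DPYSL3, chr5:147453693-147453942, minus strand: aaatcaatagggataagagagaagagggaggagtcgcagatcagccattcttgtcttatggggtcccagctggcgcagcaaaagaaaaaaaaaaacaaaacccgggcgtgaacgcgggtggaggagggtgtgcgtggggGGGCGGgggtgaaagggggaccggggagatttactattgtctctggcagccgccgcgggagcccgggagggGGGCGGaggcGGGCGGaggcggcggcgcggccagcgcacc
The MAP1B window printed holds 1 TATAAA and 3 GGGCGG, and a further MAP1B window of the table, chr5:72179537-72179786, holds 1 TATAAA and 2 GGGCGG. Of the others, the TUBA1A window holds 2 CCAAT, the first DPYSL3 window none of them and its other window 3 GGGCGG. Over the 16 windows of the 9 members, TATAAA occurred in 3, CCAAT in 6 and GGGCGG in 9, or 18.8%, 37.5% and 56.2%. Among all 35116 windows of the table the shares were 10.7%, 32.0% and 42.6%. A match says only that the letters are there.

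GGACT is among the short sequences in which METTL3 methylates adenosine. On the sense strand of canonical transcripts it occurred 9 times in MAP1B, 8 of them in the coding part and 1 in the 3′UTR, or 0.763 per kb. The median over 12419 transcripts of tested genes was 0.922 per kb, with quartiles of 0.567 and 1.37. MAP1A, with 17 matches or 1.66 per kb, TUBB6, with 3 or 1.60 per kb, and MAPT, with 10 or 1.47 per kb, lay above the upper quartile. MAP2 had 6 matches (0.622 per kb), TUBB2A 1 (0.619 per kb), TUBB3 1 (0.586 per kb) and DPYSL3 2 (0.364 per kb). TUBA1A and TUBB2B had none, as did 7.96% of the transcripts. So 7 of the 10 members lay below the median, among them both genes that were higher in shMETTL3 and genes that were lower. No m6A was measured in these libraries, and a match is not a methylated site.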

How the data were processed

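The libraries and their groups were taken from the sample titles. Reads were aligned to hg19 with HISAT2 and counted with HTSeq by the authors, who deposited raw counts, which are whole numbers with no normalization. The submitters' processing notes name cutadapt 3.0, HISAT2 2.2.1, SAMtools 1.13 and HTSeq 0.13.5, where the paper's methods give other versions of HISAT2 and HTSeq. The gene annotation, read length and strand setting are not given in the sources used here. Row names that had been turned into dates, 27 in all, are not used.

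Counts were scaled by TMM, filtered with filterByExpr and tested with edgeR 4.0.16 (glmQLFit and glmQLFTest, R 4.3.3, limma 3.58.1) on a design with the group only, with Benjamini-Hochberg adjustment over 15125 genes and a threshold of 0.05. The members and gene lists were chosen with earlier results of these data known, and no test of the members' differences is reported. From each list up to 3 called rises and up to 3 called falls with an average log2 CPM of at least 1 are named, together with all alpha- and beta-tubulins in the shares, the 3 genes most like MAP1B and defining markers at 0. One gene that this rule names is not reported here. The lists were 8 by microtubule role, neuronal and neuroendocrine markers, REST and its partners, epithelial markers, and stromal, blood and endothelial markers. Positions, lengths and words came from GRCh37 with a GENCODE annotation lifted to it. Alternatives were RLE, upper-quartile and library-size scaling, no filter, a minimum of 10 counts in each library, limma-voom, DESeq2 1.42.0, a replicate block, each library left out, stricter thresholds, other lengths and other word lengths. The canonical transcript length was added after the data were seen. The functions were tested on simulated counts. Intervals and the floor of 3 counts cover counting error only.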

Additional observations from a re-analysis of the deposited data

How the results depend on the processing

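The count of changed genes among the other microtubule genes, 67 in all with 37 rises and 30 falls, depended most on a minimum fold: with an absolute log2 fold change of at least 1, 12 were left, 10 rises and 2 falls. With scaling by library size alone, which put the median over all tested genes at 0.18 on the log2 scale, the falls numbered 15. Leaving out 1 library at a time, the count lay between 61 and 68, that over all tested genes between 9410 and 10072, and the log2 fold change of METTL3 between -1.39 and -1.34. The replicate numbers did not pair the libraries: deviations of same-numbered libraries from their group means correlated at 0.069, -0.024 and 0.039, and not every library correlated best with its own number. With the replicate block, the other microtubule genes counted 68 (38 rises and 30 falls), all tested genes 10111 and METTL3 -1.36. Named genes outside the members kept their direction under every alternative that gave a value, with their call kept in 786 values and lost in 11. MAP7D2 could not be tested with at least 10 counts in every library.

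Of the members, MAPT changed sign with scaling by library size alone. TUBB3 did so without vector replicate 3 or shMETTL3 replicate 3. Depth limited TUBB2B, MAP1A and TUBB3, which had 12 to 46 counts per library. Isotype shares, like the order of the members' levels, depended on the length used, at 0.184% to 0.624% for TUBB3 with the vector, but the share of each tubulin member kept its order between the groups under the 3 lengths. That of TUBB4B did not, with a difference between shMETTL3 and vector of 0.0444 percentage points by summed exons and -0.0274 by coding length.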

Other observations

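REST and its corepressors hold down neuronal genes in other tissues. Of these 4 genes 2 rose and 1 fell: REST from 20.5 ± 1.53 to 26.4 ± 1.57 CPM (SD, n = 3 each, log2 fold change 0.36, adjusted p = 2.35e-04 by edgeR), RCOR3 by 0.30 (adjusted p = 1.12e-03), and RCOR1 downward from 112 ± 2.65 to 68.6 ± 2.78 CPM (-0.71, adjusted p = 4.99e-12).

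Of 10 stromal, blood and endothelial markers 9 were matched, PECAM1 excepted, and 3 tested, of which 2 rose and none fell. COL1A1, a collagen of fibroblasts, rose from 5.64 ± 1.44 to 10.5 ± 0.452 CPM (SD, n = 3 each, 0.90, adjusted p = 3.47e-06 by edgeR). CDH5, the cadherin of endothelium, was chosen after its values were seen and had 0, 0 and 2 counts with the vector and 30, 28 and 30 in shMETTL3. The endothelial marker VWF was at 0 in every library. The summed level of the list was 6.46 to 9.99 CPM with the vector and 15.9 to 16.3 CPM in shMETTL3.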
